A study of Mus musculus with 4 samples.

Results

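The genes described here are 10 members of the BCL2 family of apoptosis regulators, out of 35976 gene rows in the deposited count table. They were chosen by symbol and comprise the pro-survival genes Bcl2, Bcl2l1 and Mcl1, the effector genes Bax and Bak1, and the BH3-only genes Bbc3, Pmaip1, Bcl2l11, Bid and Bad. All 10 symbols were found in the table. Expression was measured by mRNA sequencing in mouse E14 embryonic stem cells (strain given as 12910la). There were 2 libraries of cells labelled as knocked down for Lx8-SINE B2, a transcript whose name comes from SINE B2, a family of short interspersed repeats, and 2 libraries of control cells labelled wild type. The protocol attached to all 4 libraries describes 1000 ng of the pSuper puro vector, which carries the short hairpin RNA and puromycin resistance, then 24 h without selection and 3 days in 1 ug/ml puromycin. All cells grew on gelatin without mention of feeder cells, in 15% serum and LIF, a cytokine that blocks their differentiation. The labels do not name the vector used in the controls, and the targeted transcript itself was not analysed here. The titles give a batch for the knockdown libraries alone, and batch cannot therefore be told apart from the knockdown. The labels do not say whether replicate libraries are separate cultures, and p-values therefore reflect only how these libraries vary, which may be technical.

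BCL2 family proteins decide whether the outer mitochondrial membrane is opened, the step that releases cytochrome c and commits a cell to apoptosis. The effectors BAX and BAK form the pores, the pro-survival proteins BCL-2, BCL-XL (from Bcl2l1) and MCL-1 hold them in check, and BH3-only proteins sense stress and either neutralise the pro-survival proteins or activate the effectors. The genes of PUMA (Bbc3) and NOXA (Pmaip1) are the classic BH3-only genes induced by the tumour suppressor p53, while BIM (Bcl2l11), BID and BAD are controlled to a large part by other pathways or after translation. Mouse embryonic stem cells are known to be primed for apoptosis and to depend on MCL-1 and BCL-XL.

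None of the 9 tested members was called changed. Bcl2l1 and Bbc3 showed the largest fitted differences, both with higher levels in the knockdown libraries, followed by Bax. The libraries of Pmaip1, the other p53-inducible BH3-only gene, overlapped between groups. Of the 10 members, 9 passed the filter on low counts and Bcl2 did not. CPM are counts scaled to library size. In edgeR's quasi-likelihood test over 16209 genes, 0 of these 9 passed a Benjamini-Hochberg adjusted p of 0.05, where 1.43% of all tested genes did (142 higher and 90 lower in knockdown). At an unadjusted p below 0.05 there were 2 members, Bcl2l1 and Bbc3, against 19.6% of all tested genes. DESeq2 called 1 member, Bcl2l1, limma-voom 0 and edgeR's likelihood ratio test 1, again Bcl2l1. Both knockdown libraries lay above both controls for 4 of the 9 tested members (27.3% of all tested genes) and below both for 1 (24.6% of all tested genes), and the groups overlapped for 4. The median log2 fold change was -0.03 over the 9 members and 0.01 over all tested genes. Leaving out control replicate 1 gave 2 called members, Bcl2l1 and Bbc3, and leaving out any other library gave 0. Over the whole table, leaving out knockdown replicate 1 gave 386 called genes and leaving out knockdown replicate 2 gave 153, while 587 were called when control replicate 1 was left out and 349 when control replicate 2 was. In bulk RNA, fewer cells that express a gene and less of its RNA per cell cannot be told apart.

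**Figure D1:**
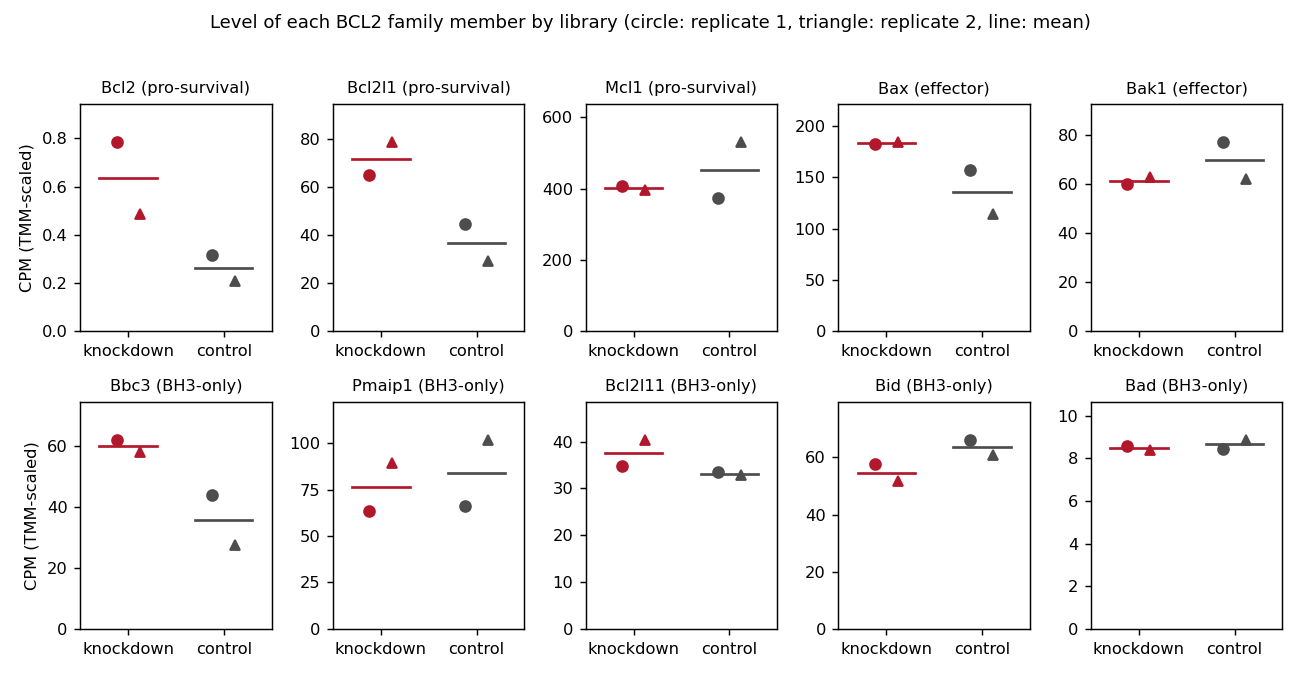
Level of each of the 10 members in CPM (scaled by TMM, linear axes from 0), with knockdown libraries left and control libraries right in each panel; circles are replicate 1, triangles replicate 2 and lines the group mean. Bcl2l1, Bbc3, Bax, Bcl2l11 and Bcl2 show both knockdown libraries above both controls, Bid shows both below, and the other 4 overlap.

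The libraries held 18592224 and 16383323 counts in knockdown and 19867689 and 19044832 in control. The controls resembled each other less than the knockdown libraries did, with a Pearson correlation of log2 CPM across genes of 0.979 within knockdown and 0.968 within control, against 0.944 to 0.959 across groups. Markers of embryonic stem cells summed to 5648 and 6348 CPM in knockdown and 7904 and 7479 CPM in control, and 1 of these 10 markers, the NODAL coreceptor gene Tdgf1, fell (log2 fold change -1.19, edgeR adjusted p = 0.0438). The Tdgf1 call was lost when either knockdown library was left out. Dppa5a, chosen after its values were seen, had 664 and 1021 CPM in knockdown and 1437 and 1446 CPM in control (not called). The groups overlapped for the other 8 stem cell markers. Of 10 fibroblast markers, Lum and Postn were at 0 and 6 in all stayed below 1 CPM in each library, with a sum of 37.9 and 36.2 CPM in knockdown and 25.6 and 33.9 CPM in control. Endoderm markers summed to 40.6 and 30.1 CPM in knockdown and 12.7 and 18.6 CPM in control. Mesoderm markers summed to 22.8 and 26.5 CPM in knockdown and 16.6 and 16.1 CPM in control. Much of the mesoderm sum was Eomes, at 10.4 and 15.1 CPM in knockdown and 11.5 and 10.1 CPM in control. The sums share genes, with Eomes also counted as a trophectoderm marker and Pdgfra as both a fibroblast and an endoderm marker. Of the 6 mesoderm markers, Kdr had 10.2 and 9.24 CPM in knockdown and 2.64 and 2.65 CPM in control (not called), while T and Mesp1 had both knockdown libraries below both controls. Trophectoderm markers overlapped at 60.2 and 105 CPM in knockdown and 68.4 and 75.8 CPM in control. Of the 6 tested ones, Gata3 had 3.14 and 2.80 CPM in knockdown and 0.476 and 0.467 CPM in control (not called). The groups overlapped for the other 5. Cdx2, not tested, had 0.471 and 0.304 CPM in knockdown and 0.0528 and 0.104 CPM in control. Neural markers overlapped at 142 and 122 CPM in knockdown and 121 and 127 CPM in control. The neural factor gene Neurod1 nevertheless rose (log2 fold change 2.08, edgeR adjusted p = 0.0358). The Neurod1 call was lost when knockdown replicate 2 or control replicate 2 was left out. The part of such cells in the values of the BCL2 family was not tested.

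Among the pro-survival genes, the values for Bcl2l1 and Mcl1 went different ways. Bcl2l1, on chromosome 2 from 152780668 to 152831728 (mm10, minus strand), encodes BCL-XL. It had 64.8 and 78.6 CPM in the knockdown libraries, against 44.3 and 29.1 CPM in the controls. The knockdown libraries lay clear of the controls, and the controls differed from each other by more than the knockdown libraries did. The means were 71.7 ± 9.75 CPM and 36.7 ± 10.8 CPM (SD, n = 2 each), a 1.95-fold difference. Its log2 fold change of 0.97 (standard error, SE, 0.25) had a 95% interval of 0.39 to 1.54 (edgeR adjusted p = 0.0911), and it ranked 806 of the tested genes by p. Without control replicate 1 the value was 1.30 and was called (edgeR adjusted p = 0.0309), and it was not called with any other library left out, at 1.09 with knockdown replicate 1 removed, 0.82 with knockdown replicate 2 removed and 0.64 with control replicate 2 removed.

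Mcl1, on chromosome 3 from 95658788 to 95663176, encodes a short-lived pro-survival protein. It had 407 and 397 CPM in knockdown, against 373 and 531 CPM in control. The 2 controls lay on either side of the knockdown libraries, so the groups overlapped. The log2 fold change was -0.17 with a 95% interval of -0.65 to 0.32 (edgeR adjusted p = 0.709), and it became 0.06 without control replicate 2. Within a library, the log2 ratio of Bcl2l1 to Mcl1 per kilobase of exon was -3.08 and -2.76 in knockdown and -3.50 and -4.61 in control. Both knockdown libraries thus had more Bcl2l1 transcript per Mcl1 transcript than both controls, a difference in mean log2 ratio of 1.14 (two-sided exact permutation p = 0.333, the smallest that 2 against 2 libraries allow).

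Bcl2 itself had few reads, with 15 and 8 reads in knockdown and 6 and 4 reads in control, or 0.785 and 0.486 CPM against 0.317 and 0.208 CPM. The ratio of the summed reads, corrected for library size, was 2.47 in knockdown over control with an exact 95% interval of 1.13 to 5.82 that covers counting error only. With no filter on low counts the fitted log2 value was 1.25 (SE 0.85, edgeR adjusted p = 0.537).

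The effectors Bax and Bak1 had fitted values of opposite sign, and neither was called. Bax, on chromosome 7 from 45461697 to 45466898, had 183 and 185 CPM in knockdown, against 158 and 114 CPM in control. The knockdown libraries were nearly equal and lay above both controls. The log2 fold change was 0.44 (SE 0.20), and its 95% interval was -0.02 to 0.89, which includes 0 (edgeR adjusted p = 0.278). It was 0.68 with control replicate 1 left out and 0.17 with control replicate 2 left out, and not called in either fit. Bak1, on chromosome 17 from 27019810 to 27029009, had 59.9 and 63.0 CPM in knockdown and 77.1 and 62.1 CPM in control. One control matched the knockdown libraries and the other lay above them, and the log2 fold change was -0.18 with a 95% interval of -0.62 to 0.26 (edgeR adjusted p = 0.652). The log2 ratio of Bax to Bak1 per kilobase was 2.22 and 2.16 in knockdown and 1.64 and 1.49 in control, with the groups apart (two-sided exact permutation p = 0.333, again the smallest possible).

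Bax is itself a known p53 target, and its start region is shown because it holds the only p53 half-site, the 10-base element bound by a p53 dimer, among the member windows searched. The sequence is the RefSeq window (GRCm38.p6) from 250 bases before to 50 bases after the start, with the half-site in capitals, at chr7:45466849-45467148 on the minus strand.
Bax: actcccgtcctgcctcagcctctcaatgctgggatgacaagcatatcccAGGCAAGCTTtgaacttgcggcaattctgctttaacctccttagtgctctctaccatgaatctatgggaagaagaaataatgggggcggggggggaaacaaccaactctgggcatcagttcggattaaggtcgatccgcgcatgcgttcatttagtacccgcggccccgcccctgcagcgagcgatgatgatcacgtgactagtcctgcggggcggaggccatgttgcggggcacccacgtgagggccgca
Of 15 such windows for 9 members, this 1 held a perfect half-site on either strand, against 8.36% of 32851 windows of all genes. Pmaip1 was not among the members searched. No member window held 2 half-sites within reach of each other with at most 1 difference in each, which 2.71% of all windows held. Such a match is a description of the letters, not a binding site, and p53 is known to bind outside these short windows.

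Among the BH3-only genes, the p53-inducible pair had unlike values. Bbc3, on chromosome 7 from 16308393 to 16318205, encodes PUMA, which binds all pro-survival proteins. It had 62.2 and 58.0 CPM in knockdown, against 44.0 and 27.5 CPM in control. The knockdown libraries were close to each other and lay above both controls, which themselves differed by 0.68 on the log2 scale. The means were 60.1 ± 2.94 CPM and 35.8 ± 11.6 CPM (SD, n = 2 each), a 1.68-fold difference. Its log2 fold change of 0.75 (SE 0.25) had a 95% interval of 0.17 to 1.33, and it was not called (edgeR adjusted p = 0.158). Without control replicate 1 it was 1.12 and called (edgeR adjusted p = 0.0368), and without control replicate 2 it was 0.40.

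Pmaip1, on chromosome 18 from 66458533 to 66465565, encodes NOXA, which binds MCL-1. It had 63.6 and 89.5 CPM in knockdown, against 66.3 and 102 CPM in control. Replicate 2 was the higher library in each group, and the groups overlapped almost fully. The log2 fold change was -0.13 (SE 0.26), and its 95% interval was -0.73 to 0.46 (edgeR adjusted p = 0.818). It turned to 0.16 without control replicate 2 and to 0.09 without knockdown replicate 1. The log2 ratio of Bbc3 to Pmaip1 per kilobase was 0.33 and -0.26 in knockdown and -0.23 and -1.52 in control, with overlapping groups (two-sided exact permutation p = 0.667).

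As a pair, the p53-inducible genes had fitted log2 fold changes with a median of 0.31, against -0.03 over the 7 other tested members, a difference of 0.34. The pair's median averages the unlike values of Bbc3 and Pmaip1, and 1 of the other members, Bcl2l1, had a larger value than either. The difference was between 0.17 and 0.44 when 1 library was left out. It became 0.53 when Bax was counted with the pair and -0.21 when Bid was, so it depended on which genes were called p53-inducible.

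None of the other BH3-only genes was called. Bcl2l11, which encodes BIM and lies on chromosome 2 from 128126038 to 128162547, had 34.7 and 40.4 CPM in knockdown and 33.4 and 32.8 CPM in control. The knockdown libraries lay just above the controls, with a log2 fold change of 0.18 and a 95% interval of -0.29 to 0.65 (edgeR adjusted p = 0.674). Bid, the BH3-only gene whose product is cleaved by caspase-8, lies on chromosome 6 from 120891930 to 120916853 and had 57.6 and 51.8 CPM in knockdown and 66.2 and 61.0 CPM in control. Both knockdown libraries lay below both controls, with a log2 fold change of -0.22 and a 95% interval of -0.64 to 0.21 (edgeR adjusted p = 0.559). Bad, whose product is held inactive by phosphorylation, lies on chromosome 19 from 6941861 to 6951899 and had 8.58 and 8.39 CPM in knockdown and 8.45 and 8.87 CPM in control. Its value was the closest to 0 among the members, with a log2 fold change of -0.03 and a 95% interval of -0.74 to 0.68 (edgeR adjusted p = 0.97).

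**Figure D2:**
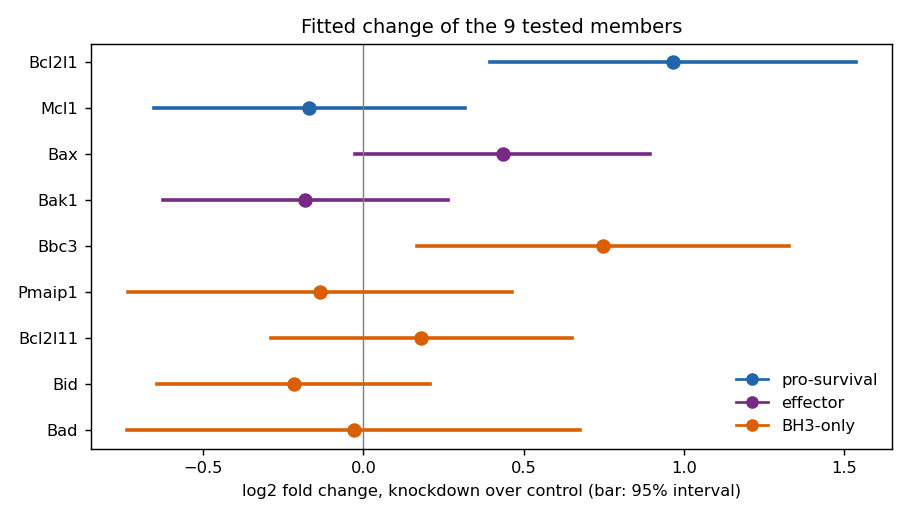
Fitted log2 fold change, knockdown over control, of the 9 tested members with 95% intervals from edgeR's quasi-likelihood fit, coloured by role. The intervals of Bcl2l1 (0.39 to 1.54) and Bbc3 (0.17 to 1.33) lie above 0, and those of the other 7 include 0.

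For Bcl2l1, Bbc3, Bax, Bak1, Mcl1 and Pmaip1, the knockdown libraries lay closer together than the controls. The log2 difference of replicate 2 minus replicate 1 in knockdown was 0.28 for Bcl2l1, -0.10 for Bbc3, 0.02 for Bax, 0.07 for Bak1, -0.04 for Mcl1 and 0.49 for Pmaip1. The same difference in control was -0.61 for Bcl2l1, -0.68 for Bbc3, -0.46 for Bax and -0.31 for Bak1, and it was 0.51 for Mcl1 and 0.62 for Pmaip1. For Bcl2l11, Bid and Bcl2 the knockdown libraries were the pair further apart, at 0.22, -0.15 and -0.69 in knockdown and -0.03, -0.12 and -0.61 in control, and Bad differed by -0.03 in knockdown and 0.07 in control. The median size of this gap over tested genes was 0.25 in knockdown and 0.35 in control. The plot with 1 library left out shows how far each member's value moved with its library set.

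**Figure D3:**
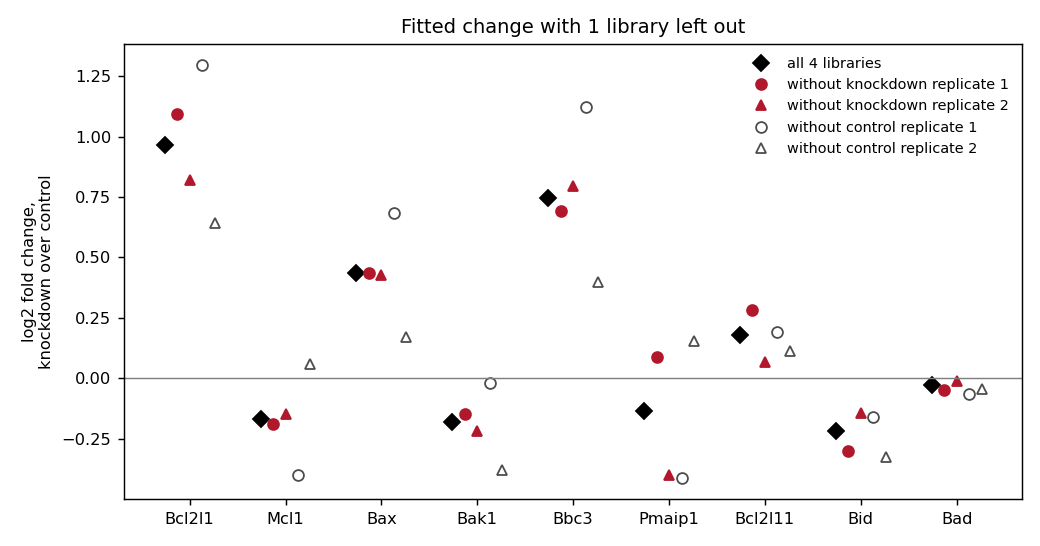
Fitted log2 fold change, knockdown over control, of the 9 tested members with all 4 libraries (black diamonds) and with 1 library left out (circles for replicate 1, triangles for replicate 2; filled red for a knockdown library left out, open grey for a control left out). Bcl2l1, Bbc3 and Bax stay above 0 in each fit, while Mcl1 and Pmaip1 cross 0.

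Levels of different members were compared per kilobase of exon (GENCODE M21), since longer transcripts give more reads. In knockdown the order began with Mcl1 at 118 ± 2.21 and Bax at 117 ± 0.875 CPM per kilobase (SD, n = 2), which did not differ beyond their spread. It went on with Bbc3 at 28.3 ± 1.38, Pmaip1 at 28.0 ± 6.70 and Bak1 at 25.5 ± 0.921, then Bcl2l1 at 15.6 ± 2.13 and Bid at 15.4 ± 1.15, and ended with Bcl2l11 at 4.67 ± 0.501, Bad at 3.32 ± 0.0525 and Bcl2 at 0.0694 ± 0.0230. In control it was Mcl1 at 132 ± 32.7, Bax at 86.2 ± 19.5, Pmaip1 at 30.8 ± 9.18, Bak1 at 28.9 ± 4.42, Bid at 17.9 ± 1.02, Bbc3 at 16.8 ± 5.48, Bcl2l1 at 8.01 ± 2.35, Bcl2l11 at 4.12 ± 0.0581, Bad at 3.39 ± 0.115 and Bcl2 at 0.0286 ± 0.00846. In knockdown, Bbc3 and Pmaip1, Pmaip1 and Bak1, and likewise Bcl2l1 and Bid did not differ beyond their spread, and Pmaip1 was above Bbc3 in replicate 2. In control, the neighbours Pmaip1 and Bak1, and likewise Bid and Bbc3, did not differ beyond their spread.

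The members summed to 351 and 360 CPM per kilobase in knockdown and 322 and 335 in control. Pro-survival transcripts made up 38.0% and 37.1% of that sum in knockdown and 36.9% and 48.3% in control, effectors 40.2% and 39.9% against 41.0% and 29.3%, and BH3-only transcripts 21.8% and 23.1% against 22.1% and 22.4%. By role, the composition of both knockdown libraries was close to that of control replicate 1, and control replicate 2 stood apart through more Mcl1 and less Bax. Within the pro-survival share, Bcl2l1 held 4.03% and 4.77% of the sum in knockdown and 3.00% and 1.90% in control.

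**Figure D4:**
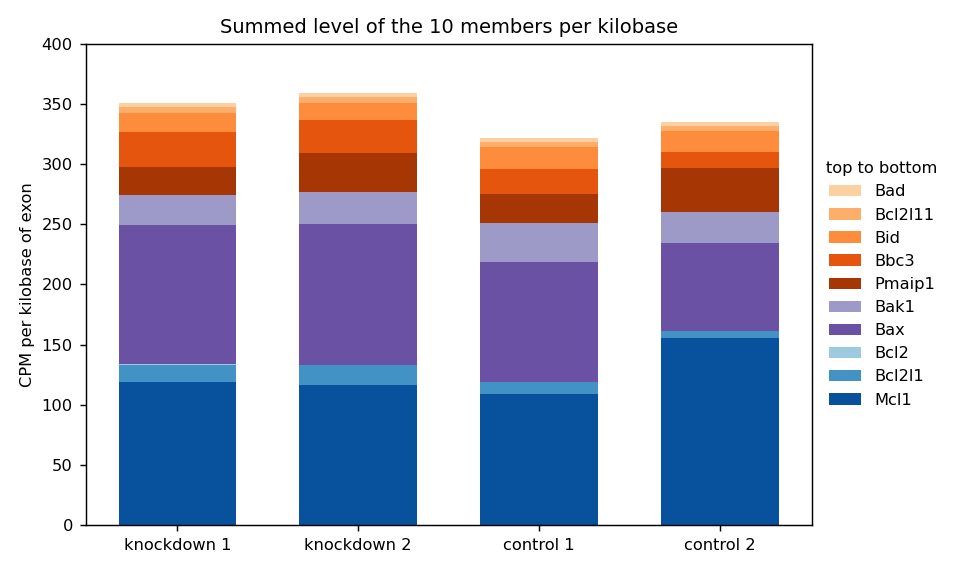
Stacked level of the 10 members in CPM per kilobase of exon in each library, with pro-survival genes in blue at the bottom, effectors in purple and BH3-only genes in orange. Mcl1 and Bax dominate in each library, and control 2 holds the tallest Mcl1 segment (155 CPM per kilobase) and the shortest Bax segment (72.4 CPM per kilobase).

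Outside the 10 members, the related gene Bmf fell. It encodes a BH3-only protein tied to the cytoskeleton and to death after loss of attachment, and it had 17.5 and 13.2 CPM in knockdown, against 59.2 and 52.4 CPM in control. The groups lay far apart, with a log2 fold change of -1.86 (SE 0.23, edgeR adjusted p = 0.0173), and Bmf was called in each of the 4 fits that left out 1 library (-2.09 to -1.67). Of 13 other BCL2-related genes, 9 were tested, 1 fell (Bmf) and 0 rose. Over all tested genes, 0.555% were called lower and 0.876% higher. An unadjusted p below 0.05 was found for 3 of the 9, against 19.6% of all tested genes. Both knockdown libraries lay above both controls for 2 of the 9 (27.3% of all tested genes). They lay below both for 3 (24.6% of all tested genes), and the groups overlapped for 4. The log2 fold changes of these 9 genes had their median at -0.24. Bok, a gene of the effector type named after its values were seen, had 6.70 and 6.38 CPM in knockdown and 20.7 and 12.3 CPM in control (log2 fold change -1.33, edgeR adjusted p = 0.0911). Bok was called when control replicate 2 was left out, at -1.71, and with DESeq2, the likelihood ratio test and no filter on low counts, which each gave 2 called genes in the list. The pro-survival relative Bcl2l2 and the mitochondrial Bcl2l13, also chosen after their values were seen, had log2 fold changes of -0.24 and -0.04. Bcl2l13 was at 0.16 without knockdown replicate 2 and at 0.01 with scaling by total counts.

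Downstream of the mitochondria, none of 13 genes of the apoptosome, the caspases and mitochondrial release passed the test (3 at an unadjusted p below 0.05, and 0 with DESeq2), with a median log2 fold change of -0.17. For this and the next lists, 19.6% of all tested genes had an unadjusted p below 0.05, and DESeq2 called 1107 genes over the whole table. Cycs, which encodes cytochrome c, had 112 and 111 CPM in knockdown and 131 and 147 CPM in control (log2 fold change -0.32). Aifm1, a mitochondrial flavoprotein gene, had 67.0 and 62.9 CPM in knockdown and 99.6 and 86.5 CPM in control (log2 fold change -0.52, edgeR adjusted p = 0.166). Apaf1, the apoptosome scaffold gene and a known p53 target, named after its values were seen, had 90.5 and 87.4 CPM in knockdown and 63.0 and 59.2 CPM in control (log2 fold change 0.54, edgeR adjusted p = 0.142). The groups of Apaf1 did not overlap, but the difference did not pass over all genes. Of 6 tested inhibitor of apoptosis genes, 0 passed (1 at an unadjusted p below 0.05, and 0 with DESeq2), and the most abundant, Birc6 and Birc5, had log2 fold changes of 0.41 and -0.11. Of 9 death receptor pathway genes, 0 passed (4 at an unadjusted p below 0.05, and 2 with DESeq2), with a median of 0.45. Tnfrsf10b, the mouse TRAIL receptor gene and a p53 target, had 60.0 and 51.5 CPM in knockdown and 30.8 and 28.5 CPM in control (log2 fold change 0.91, edgeR adjusted p = 0.0666), and the kinase gene Ripk1 had 26.8 and 36.1 CPM against 16.4 and 18.0 CPM (log2 fold change 0.87).

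Upstream, part of the p53 targets outside the family rose. Of 26 tested targets, 4 rose and 0 fell, where 0.876% of all tested genes were called higher and 0.555% lower. Their median log2 fold change was 0.85. At an unadjusted p below 0.05 there were 18 of the 26, against 19.6% of all tested genes. Both knockdown libraries lay above both controls for 19 of the 26 (27.3% of all tested genes) and below both for 2 (24.6% of all tested genes). This list, like the others, was chosen with earlier results of these data known, so these counts only describe it. The median of Bbc3 and Pmaip1, given above as 0.31, was not tested against that of the targets. Those 4 were Plk2, Perp, Mdm2 and Phlda3, at 2.01, 2.44, 1.57 and 1.51, each called in all 4 fits that left out 1 library. The number of called targets was 14 with DESeq2, 15 with the likelihood ratio test and with no filter, 12 with the replicate block and 4 with limma-voom. Calls over the whole table moved too, from 232 to 1107 with DESeq2 and 1310 with the likelihood ratio test. They were 1717 with no filter, 656 with the replicate block and 241 with limma-voom. Cdkn1a, the cell cycle inhibitor gene, named after its values were seen, had 122 and 205 CPM in knockdown and 69.7 and 46.4 CPM in control (log2 fold change 1.49, edgeR adjusted p = 0.0543); it was called with DESeq2, the likelihood ratio test, the replicate block and no filter, and when knockdown replicate 1 or control replicate 1 was left out, but not with limma-voom. The Trp53 transcript, also chosen after its values were seen, had 399.97 and 399.2 CPM in knockdown and 388 and 313 CPM in control (log2 fold change 0.19, and -0.01 without control replicate 2). Among p53 and its direct regulators, 2 of 7 tested genes rose, Mdm2 and Trp73, and 2 had an unadjusted p below 0.05. Trp73, which encodes the p53 relative p73, had 44.7 and 38.3 CPM in knockdown and 9.09 and 8.40 CPM in control (log2 fold change 2.25, edgeR adjusted p = 0.0101), and was called with any 1 library left out.

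**Figure D5:**
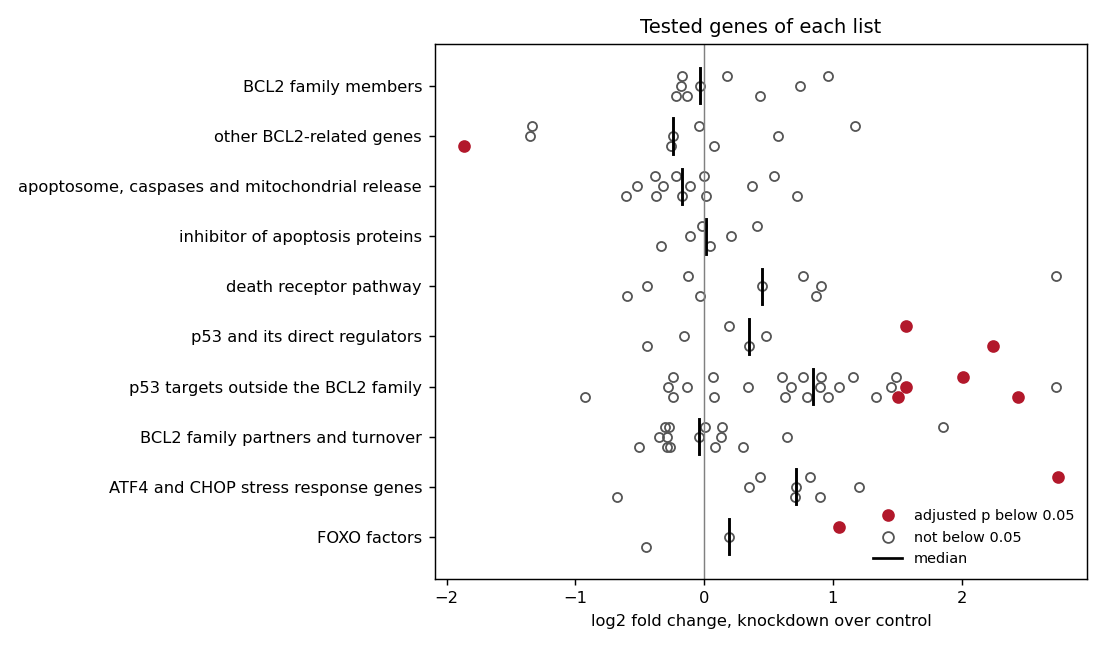
Log2 fold change, knockdown over control, of each tested gene in 10 lists; filled red points passed an adjusted p of 0.05, open points did not, and black bars are medians. The p53 target list sits to the right of 0 (median 0.85), while the BCL2 family members centre near 0 (median -0.03). All lists were chosen with earlier results of these data known.

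Other known inputs to the BH3-only genes were compared. FOXO factors induce BIM and PUMA in other cells, and of the 3 FOXO genes Foxo3 rose. Over all tested genes, 0.876% were called higher and 0.555% lower. At an unadjusted p below 0.05 there were 2 of the 3, Foxo3 and the lower Foxo4, against 19.6% of all tested genes. Foxo3 had 374 and 300 CPM in knockdown and 166 and 160 CPM in control (log2 fold change 1.05, edgeR adjusted p = 0.0429). The call was lost when knockdown replicate 1 (0.88), knockdown replicate 2 (1.20) or control replicate 2 (0.97) was left out, and with RLE or upper quartile scaling (1.03 and 1.02). Foxo1 and Foxo4, chosen after their values were seen, were at 0.19 and -0.45, not called, with Foxo1 at -0.02 without control replicate 2. Start windows of Bbc3 and Bcl2l11 that hold the letters GTAAACA on either strand, in capitals, are shown because these were the only 2 of the 15 member windows with the motif, which 3.65% of all windows held. They lie at chr7:16310011-16310310 and chr2:128125788-128126087, both on the plus strand, and the motif begins at base -167 from the start in Bbc3, read as its reverse complement, and at base -227 in Bcl2l11.
Bbc3: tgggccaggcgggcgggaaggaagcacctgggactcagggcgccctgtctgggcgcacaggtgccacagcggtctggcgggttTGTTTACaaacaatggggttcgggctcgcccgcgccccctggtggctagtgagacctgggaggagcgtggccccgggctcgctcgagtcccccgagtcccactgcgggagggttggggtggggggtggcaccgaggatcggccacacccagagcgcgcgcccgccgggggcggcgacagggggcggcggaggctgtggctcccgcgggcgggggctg
Bcl2l11: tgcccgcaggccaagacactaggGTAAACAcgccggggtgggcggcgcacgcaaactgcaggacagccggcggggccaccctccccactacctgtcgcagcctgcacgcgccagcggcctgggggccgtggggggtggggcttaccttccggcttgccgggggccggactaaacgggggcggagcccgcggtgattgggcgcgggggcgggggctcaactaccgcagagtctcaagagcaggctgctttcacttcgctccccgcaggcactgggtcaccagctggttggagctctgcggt
Other windows of both genes lacked the motif, and a match describes the letters and is not a binding site. Both genes, with levels given above, had both knockdown libraries above both controls, as did 27.3% of all tested genes. Neither was called, and the part of FOXO factors in their levels was not tested.

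Of 9 genes of the ATF4 and CHOP stress response, which can also induce NOXA, PUMA and BIM, 1 rose and 0 fell, where 0.876% of all tested genes were called higher and 0.555% lower. The median log2 fold change was 0.71, and 6 of the 9 had an unadjusted p below 0.05 (19.6% of all tested genes). Both knockdown libraries lay above both controls for 7 of the 9 genes (27.3% of all tested genes) and below both for 1 (24.6% of all tested genes), and the groups overlapped for 1. Sesn2 is in both this list and the p53 target list. Atf3, the gene that rose, had 6.96 and 17.4 CPM in knockdown and 1.53 and 2.08 CPM in control (log2 fold change 2.75, edgeR adjusted p = 0.0493). It was not called without control replicate 1 (2.54), control replicate 2 (2.93) or knockdown replicate 2 (1.95). The call was also lost with limma-voom (limma adjusted p = 0.0748), with a filter of 1 CPM and with RLE, upper quartile or total count scaling, each of which left 0 calls in the list. The count was 5 with DESeq2 and with the likelihood ratio test, 4 with the replicate block and 6 with no filter on low counts (5 higher and 1 lower). Calls over the whole table, given above for these settings, also outnumbered those of the main fit. Atf4 and the CHOP gene Ddit3, chosen after their values were seen, were at 0.82 and 1.21 and not called (edgeR adjusted p = 0.0589 and 0.116), and both were called with DESeq2. Asns, the asparagine synthetase gene and a known ATF4 target, also chosen after its values were seen, was the gene with both knockdown libraries below both controls, at 274 and 149.7 CPM in knockdown and 281 and 395 CPM in control (log2 fold change -0.67, edgeR adjusted p = 0.267). None of the 15 windows, which cover the members other than Pmaip1, held the ATF4-type letters TGATGNAA on either strand, which 3.97% of all windows held. Among 15 genes for partners and turnover of BCL2 family proteins, 0 passed, also with DESeq2, with a median of -0.04. At an unadjusted p below 0.05 there were 3, against 19.6% of all tested genes. The most abundant were Huwe1, a ubiquitin ligase gene for MCL-1, at 1518 and 1468 CPM in knockdown and 1331 and 1385 CPM in control, and Ywhae, a 14-3-3 gene, at 889 and 890 CPM against 1134 and 1021 CPM.

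Exons of 5 members overlap those of another gene in GENCODE M21, so their counts are uncertain where the counting could not separate strands or genes. Bid shares 17.7% of its exon bases with Bcl2l13 on the other strand, which had 105 CPM in knockdown and 108 CPM in control. Bad shares 20.5% with Gpr137, Bax 12.2% with Gm45808 on its own strand and Bcl2 6.09% with an antisense transcript. Bak1 shares 7.35% and 18.2% with separate annotated entries of Ggnbp1 on the other strand, which were not combined. Exons of Bcl2l1, Mcl1, Bbc3, Pmaip1 and Bcl2l11 overlap none.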

How the data were processed

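One table of unnormalized gene read counts was deposited, with a column for each of 4 libraries. The submitters' processing notes name cutadapt, HISAT2, featureCounts and the build mm10; their versions, the annotation, strand use and the handling of multi-mapping reads were not given. Of 36068 rows, 92 spike-in rows were left out, leaving 35976, of which 27 with a symbol turned into a date (0.151% to 0.177% of counts) stayed in.

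Low counts were filtered with filterByExpr (edgeR 4.0.16, R 4.3.3), leaving 16209 genes, and libraries were scaled by TMM, also for the CPM printed. The test was edgeR's quasi-likelihood test on group alone, with Benjamini-Hochberg adjustment over all tested genes. Standard errors (SE) come from the fold change and the root of its F statistic, and fold changes are knockdown over control. Totals were 16383323 to 19867689 counts. Libraries of a pair differed by more than sampling noise (chi-square per degree of freedom 19.7 in knockdown and 42.3 in control). The procedure was tested on simulated counts.

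The members and all gene lists were chosen with earlier results of these data known. All 10 members are named; of other lists the called genes (up to 6) or, with none, the 2 most abundant are named. Positions and exon lengths come from GENCODE M21 (GRCm38, the assembly of mm10) and start windows from RefSeq (GRCm38.p6), matched by symbol. Windows on chromosome 18, where Pmaip1 lies, were left out of the member search, which therefore covered 9 members. Alternatives were 3 scalings, 2 filters, DESeq2 1.42.0, limma-voom (limma 3.58.1), the likelihood ratio test, a replicate block, a threshold of 0.01, removal of the 50 most abundant genes and removal of each library.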

Additional observations from a re-analysis of the deposited data

How the results depend on the processing

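The count of called members, 0, was 2 with no filter on low counts (Bcl2l1 and Bbc3), 1 with DESeq2, 1 with the likelihood ratio test, 0 to 2 when 1 library was left out, and 0 under the other alternatives. The count of called genes, 232, was 1717 with no filter, 1107 with DESeq2, 1310 with the likelihood ratio test, 17 at an adjusted p of 0.01 and 153 to 587 when 1 library was left out. The replicate block gave 656 called genes and 0 called members; same-numbered libraries share only a number, and their deviations had a correlation across genes of -0.05. The difference between the p53-inducible pair and the other members, 0.34, was 0.23 with no filter, where Bcl2 enters, 0.17 to 0.44 when 1 library was left out, -0.21 with Bid and 0.53 with Bax counted in the pair, and moved by less than the spread between libraries otherwise.

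Signs turned only in values that were not called. With scaling by total counts, Bad was at 0.018 and Bcl2l13 at 0.013. Leaving out control replicate 1 put Mcl1 at -0.40, Pmaip1 at -0.41, Foxo1 at 0.37 and Trp53 at 0.35, and leaving out control replicate 2 put them at 0.058, 0.16, -0.020 and -0.0072 in that order. Bcl2l13 was at -0.27 with knockdown replicate 1 left out and at 0.16 with knockdown replicate 2 left out. Pmaip1 was also at 0.09 without knockdown replicate 1. The cause of these shifts was not tested. A group reduced to a lone library borrows its spread from the other group. Depth limits Bcl2, at 4 to 15 reads a library, and each group has 2 libraries.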

Other observations

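The genes outside the family whose levels followed the p53-inducible members most closely were found by the distance between log2 CPM profiles over the 4 libraries, centred on the control mean, among 9478 genes that averaged 10 CPM or more. For Bbc3 these were Pdlim1 at a distance of 0.01, Nav2 at 0.09 and Gm38426 at 0.09, with log2 fold changes of 0.74 each, and 38 genes lay within 0.2. For Pmaip1 they were Zc3h7a at 0.06, Gm17066 at 0.07 and the heat shock protein gene Hsp90aa1 at 0.10, with log2 fold changes of -0.10, -0.12 and -0.20, and 25 genes lay within 0.2. With 4 libraries such likeness is a description of levels alone.

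Within libraries, Bbc3 and Bcl2l1 kept a similar ratio. The log2 ratio of Bbc3 to Bcl2l1 per kilobase was 1.05 and 0.67 in knockdown and 1.10 and 1.03 in control, with overlapping groups (two-sided exact permutation p = 0.667). The log2 ratio of Bax to Bcl2l1 was 3.04 and 2.77 in knockdown and 3.37 and 3.51 in control, and that of Bax to Mcl1 was -0.04 and 0.01 against -0.13 and -1.10, both with the groups apart (two-sided exact permutation p = 0.333 each, the smallest that 2 against 2 libraries allow). These pairs were chosen after the values were seen.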
